A study of Mus musculus with 4 samples.

Results

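The respiratory chain genes were taken by symbol, as every gene starting with mt-, Nduf, Uqcr, Atp5 or Cox4 to Cox8 in the gene lists of the libraries with a count matrix. They were 103 of 28889 listed genes, 13 encoded by mitochondrial DNA and 90 by nuclear DNA. The 13 mitochondrial genes are protein genes, 7 of complex I, 1 of complex III, 3 of complex IV and 2 of complex V, and the lists held no mitochondrial rRNA or tRNA gene. The nuclear genes were 38 of complex I, 8 assembly factors of complex I (Ndufaf1 to Ndufaf8), 8 of complex III, 18 of complex IV, 17 of complex V and the symbol Ndufb1-ps, which GENCODE annotates as a non-coding RNA from a shared promoter. In all, 101 of the 103 symbols were in the gene lists of all 4 libraries. Cox7b2 was listed for the KLF2 libraries only and Cox8c for vector replicate 2 and KLF2 replicate 2, and a symbol not listed for a library entered with a count of 0.

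The series profiled orthotopic liver tumours of male C57BL/6 mice by droplet single-cell RNA-seq, 10 weeks after a hydrodynamic tail vein injection given at 8 weeks of age. Mice of both groups carried c-MYC and AKT inserts (pT3-EF1α-c-MYC, pT3-EF1α-AKT) placed by the SB100X transposase, with pT3 empty vector in the vector group and pT3-EF1α-KLF2 in the KLF2 group. The EF1α promoter is active in most cell types, and this route of injection reaches mainly hepatocytes. Each library came from 1 mouse, with replicates 1 and 2 in each group, and the counts of vector replicate 1 were not analysed here. Each comparison of the groups therefore set vector replicate 2 against 2 KLF2 libraries, and the vector tumour, its library and its group cannot be told apart.

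The respiratory chain passes electrons from NADH (complex I) and succinate (complex II) through complex III and cytochrome c to oxygen at complex IV, and pumps protons that drive the ATP synthase, complex V. Complexes I, III, IV and V are each assembled from core subunits encoded in mitochondrial DNA and from subunits encoded in the nucleus and imported. The mitochondrial genes are transcribed as long precursors from both strands and cut apart, and mt-Atp8 with mt-Atp6 and mt-Nd4l with mt-Nd4 remain joined as shared mRNAs. Hepatocytes are rich in mitochondria.

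Of 5 stretches of sequence that bear on the results, the first shows why 2 mitochondrial members cannot be counted apart over their whole length. It is the mt-Atp8 gene on the mitochondrial chromosome (chrM:7766-7969, plus strand, GRCm38), whose last 43 bases, in capitals, are also the first bases of mt-Atp6 (chrM:7927-8607). The mt-Nd4l gene shares 7 bases with mt-Nd4 in the same way, and mt-Nd6 lies on the other strand. Whether the deposited counts used strand is not given in the sources used here. The other stretches are promoters, from 250 bases before to 50 bases after the gene start, of 4 nuclear members: Uqcr11, which fell most in the tumour/parenchymal cells; Ndufs6, a recurrent faller; Ndufb7, which fell in the most classes; and Ndufc2, which rose in the most classes. Their RefSeq positions on GRCm38.p6 are chr10:80406772-80407071 (minus strand), chr13:73328433-73328732 (minus), chr8:83566508-83566807 (plus) and chr7:97399753-97400052 (plus). Capitals mark a match to CCGGAAGT, the site of GABP, or to the 10-base site of NRF1 (GCGCA, any base, then GCGC), which are transcription factors known for their sites at respiratory chain genes.
mt-Atp8: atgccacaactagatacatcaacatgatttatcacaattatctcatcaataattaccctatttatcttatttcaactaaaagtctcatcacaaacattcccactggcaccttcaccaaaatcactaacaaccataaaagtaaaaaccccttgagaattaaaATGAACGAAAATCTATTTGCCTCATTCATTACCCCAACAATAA
Uqcr11: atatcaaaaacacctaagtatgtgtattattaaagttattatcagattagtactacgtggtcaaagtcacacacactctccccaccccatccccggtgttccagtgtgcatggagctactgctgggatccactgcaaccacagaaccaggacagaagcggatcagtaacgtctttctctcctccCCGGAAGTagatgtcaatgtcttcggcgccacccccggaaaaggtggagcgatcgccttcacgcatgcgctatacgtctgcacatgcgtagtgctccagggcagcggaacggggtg
Ndufs6: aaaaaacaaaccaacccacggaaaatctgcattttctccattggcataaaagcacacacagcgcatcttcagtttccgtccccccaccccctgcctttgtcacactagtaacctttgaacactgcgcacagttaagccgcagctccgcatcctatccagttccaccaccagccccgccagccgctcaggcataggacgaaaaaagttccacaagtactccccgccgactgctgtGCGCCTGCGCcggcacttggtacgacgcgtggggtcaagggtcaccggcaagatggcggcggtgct
Ndufb7: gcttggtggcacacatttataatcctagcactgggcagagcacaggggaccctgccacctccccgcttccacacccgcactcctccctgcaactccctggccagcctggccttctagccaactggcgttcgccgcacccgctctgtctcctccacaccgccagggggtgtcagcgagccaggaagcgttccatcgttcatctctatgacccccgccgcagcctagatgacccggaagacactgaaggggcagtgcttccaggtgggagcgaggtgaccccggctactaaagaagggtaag
Ndufc2: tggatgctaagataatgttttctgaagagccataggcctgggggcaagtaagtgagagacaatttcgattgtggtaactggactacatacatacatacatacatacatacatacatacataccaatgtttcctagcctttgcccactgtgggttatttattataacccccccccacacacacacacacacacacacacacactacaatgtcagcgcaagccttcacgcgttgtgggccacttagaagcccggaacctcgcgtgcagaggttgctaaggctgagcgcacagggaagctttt

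Both strands were searched. Of the 72 nuclear members whose symbol has a promoter in the RefSeq table, 17 (23.6%) held the NRF1 letters, against 5.19% of all 27025 promoters. The GABP letters were in 5 (6.94%), against 4.31%, and either motif was in 29.2% of members against 9.01% of all promoters. Matches to the NRF1 letters were in 7 of 33 promoters of complex I, 1 of 5 of complex III, 1 of 13 of complex IV and 6 of 14 of complex V. The Uqcr11 promoter held the GABP letters and the Ndufs6 promoter the NRF1 letters, while the Ndufb7 and Ndufc2 promoters held neither exact string. These are matches of letters in a window, with no measure of binding.

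The libraries differed in depth and in cells. Vector replicate 2 held 45594544 UMIs (unique molecular identifiers, 1 per captured RNA molecule) over 12852 barcodes with at least 522 UMIs each, and KLF2 replicates 1 and 2 held 95374838 and 125458473 UMIs over 6282 and 11240 barcodes with at least 1000 each. Barcodes with 300 or more genes were kept, which left 10608, 6273 and 11239 cells, and the libraries shared 550 to 1146 barcode sequences in pairs. Clustering without the members gave 6 classes present in all 3 libraries, named T/NK-like, B/plasma-like, myeloid-like, neutrophil-like, endothelial-like and mesenchymal-like from marker genes, and a tumour/parenchymal compartment. In that compartment 758 of 764 vector cells were in the hepatocyte-lineage-like cluster led by Fabp1, Apoa2 and Apoc1, which held 14 and 45 KLF2 cells. The 5256 and 8491 KLF2 cells of the compartment were mostly in other clusters, led for example by Krt8 and Krt18 (cholangiocyte-like), Mt3 and Car3, Tnni1 and Fxyd6, Ibsp and Col1a1, or Malat1. T/NK-like, endothelial-like and myeloid-like cells also fell largely into different clusters in the 2 groups. Unnamed clusters outside the compartment entered no class and no test of classes or groups. One led by mt-Nd2 and mt-Nd4 held 1783 cells of vector replicate 2 and 1 and 8 of the KLF2 libraries. Another, led by Mcpt2 and Zeb2, held 0, 34 and 213, and one led by Ccl5 and Fabp4 held 131, 0 and 0. Klf2 itself, the gene of the plasmid, was at 669 UMIs per 1000000 nuclear-gene UMIs in vector replicate 2 and at 395 and 504 in the KLF2 libraries as wholes, and at 289, 382 and 468 in the compartment. Whether UMIs of the insert are counted as Klf2 is not given in the sources used here. This gene therefore did not check the group labels.

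The mitochondrial members made up a far smaller share of the UMIs in both KLF2 libraries than in vector replicate 2. The 13 genes took 14.1% of all UMIs in vector replicate 2, 0.653% in KLF2 replicate 1 and 0.882% in KLF2 replicate 2. The median kept cell had 14.5%, 0.227% and 0.350%. Cells above 10% were 69.1% of the vector cells (95% Wilson interval 68.3 to 70.0%), 3.36% of those of KLF2 replicate 1 (2.95 to 3.84%) and 3.91% of those of KLF2 replicate 2 (3.56 to 4.28%). Of those 211 and 439 KLF2 cells, 138 and 275 were in the compartment cluster led by Malat1. No vector cell lacked a mitochondrial UMI, while 94 and 123 KLF2 cells did. Intervals cover counting error only.

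**Figure D1:**
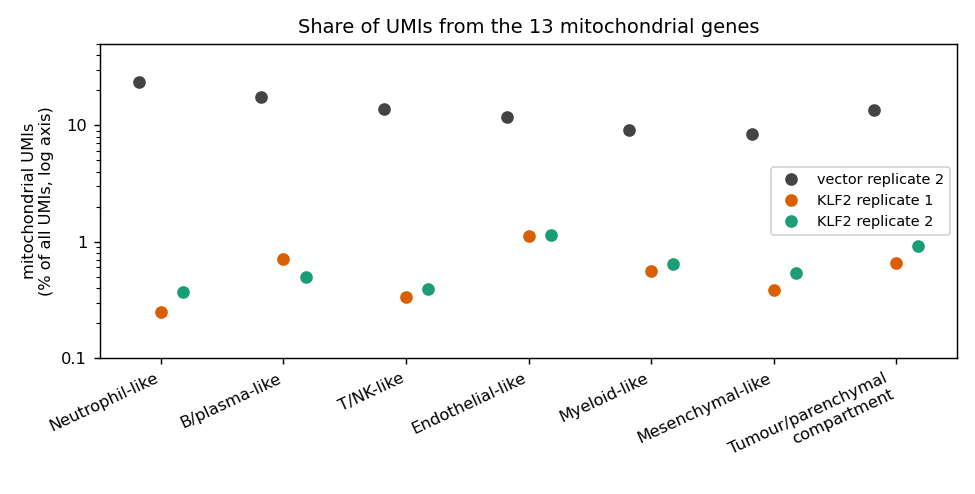
Share of all UMIs from the 13 mitochondrial genes (y axis, percent, log scale) in each cell class (x axis) and library (colours), 1 point per library. Vector replicate 2 lies between 8.50% and 23.5% in the 7 classes and both KLF2 libraries lie between 0.247% and 1.15%.

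The difference was present in every class. In neutrophil-like cells, which are short-lived granulocytes, the share was 23.5% in vector replicate 2 and 0.247% and 0.366% in KLF2 replicates 1 and 2. B/plasma-like cells had 17.7%, 0.704% and 0.5%, and T/NK-like cells 13.7%, 0.334% and 0.389%. Endothelial-like cells had 11.9%, 1.12% and 1.15%, myeloid-like cells 9.05%, 0.558% and 0.642%, and mesenchymal-like cells 8.50%, 0.381% and 0.541%. The compartment had 13.6%, 0.657% and 0.919%. The hepatocyte-lineage-like cells within it, too few in the KLF2 libraries for a test, had 13.6%, 2.11% and 0.379%. Their median cell had 15.8%, 0.303% and 0.329%, and 3 of the 14 cells of KLF2 replicate 1 were above 10%. Vector and KLF2 libraries did not overlap in any class, and the class orders differed: neutrophil-like cells were highest in vector replicate 2 and lowest in both KLF2 libraries, where endothelial-like cells were highest.

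All of the tested mitochondrial members were lower in the KLF2 libraries in each of the 7 classes by edgeR's quasi-likelihood test with p adjusted over all genes tested. These were 13 of 13 in endothelial-like, mesenchymal-like, myeloid-like and T/NK-like cells and in the compartment, and 12 of 12 in B/plasma-like and neutrophil-like cells, where mt-Nd4l had too few UMIs to be tested. Of all genes tested, 13% were lower in endothelial-like cells, 8.04% in mesenchymal-like, 7.94% in myeloid-like, 9.32% in T/NK-like, 8.79% in B/plasma-like and 5.59% in neutrophil-like cells, and 10.7% in the compartment. The median log2 change of the mitochondrial members was -6.83 in neutrophil-like, -5.42 in T/NK-like, -5.12 in B/plasma-like, -4.71 in mesenchymal-like, -4.25 in myeloid-like and -3.88 in endothelial-like cells, and -4.90 in the compartment. Over all genes tested the medians lay between 0.02 and 0.67. With 1 vector library the test takes its spread from the KLF2 pair and assumes that the vector library varies likewise. Left out in turn, either KLF2 library left 1 against 1 and no test.

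Levels below are UMIs per 1000000 UMIs of nuclear genes, written CPM, a scale that the mitochondrial counts themselves do not move. Among the core subunits of complex I, mt-Nd2 in T/NK-like cells was at 12306 CPM in vector replicate 2 and at 121 and 155 in the KLF2 libraries, a log2 change of -6.43 (SE 0.30, adjusted p 1.88e-94). mt-Nd1 there was at 12054, 244 and 301, a smaller change of -5.42 (SE 0.29). mt-Nd5, the largest of the mitochondrial complex I genes, was at 2988, 117 and 152 CPM. Each of these gene levels was far higher in the vector library, and the KLF2 libraries lay close together. mt-Cytb, the only mitochondrial subunit of complex III, was at 17677, 257 and 424 CPM in T/NK-like cells. In the catalytic core of complex IV, mt-Co1 was at 47360, 999 and 1512 CPM and mt-Co2 at 44205, 562 and 859. For complex V, mt-Atp6 was at 26701, 721 and 805 and mt-Atp8 at 1192, 76.4 and 75.7. mt-Nd4l, which shares its mRNA with mt-Nd4, rested on 236, 0 and 1 UMIs in T/NK-like cells, and mt-Nd6 in neutrophil-like cells on 16, 0 and 1 UMIs, so the fitted sizes of these changes are poorly set.

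Summed by complex, neutrophil-like and endothelial-like cells stood at the ends of the range. In neutrophil-like cells the 7 complex I genes summed to 110937 CPM in vector replicate 2 and to 443 and 759 in the KLF2 libraries, 251-fold and 146-fold less. Endothelial-like cells had 45214, 2799 and 3165 CPM, 16.2-fold and 14.3-fold less. For the 3 complex IV genes, neutrophil-like cells had 266159, 1793 and 2681 CPM and endothelial-like cells 113468, 7463 and 9121. A fit over the 6 classes with a class by group term tested whether the KLF2 difference varied among classes. It passed for 11 of the 13 mitochondrial members, all except mt-Nd4l and mt-Nd6, and for 5 of 85 nuclear members, while 5.6% of all 11777 genes passed, so the nuclear count is near the background. For each of those 11 the change was furthest from 0 in neutrophil-like cells and nearest to 0 in endothelial-like cells. This fit was added after the data were seen. The vector neutrophil-like cells were 104 in number with a median of 1271.5 UMIs.

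The make-up of the mitochondrial UMIs also differed between the groups. Of all mitochondrial UMIs, mt-Nd2 took 5.62% in vector replicate 2 and 2.69% and 2.73% in the KLF2 libraries. mt-Nd4 took 8.53%, 4.75% and 4.62%, mt-Nd3 1.19%, 0.542% and 0.539%, and mt-Co2 20.5%, 16.9% and 17.1%. In the other direction, mt-Co1 took 22.1%, 26.3% and 29.3%, mt-Atp6 12.6%, 18.2% and 16.3%, mt-Atp8 0.560%, 1.04% and 1.33%, and mt-Nd5 1.39%, 2.28% and 2.64%. The shares of mt-Nd2, mt-Nd3, mt-Nd4 and mt-Co2 were below the vector value in both KLF2 libraries in all 6 classes, and those of mt-Co1, mt-Atp6, mt-Atp8 and mt-Nd5 above it in all 6. mt-Cytb, at 8.25%, 8.85% and 7.58%, went in no common direction. Shares of a whole are tied to each other, and no test was made of them.

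**Figure D2:**
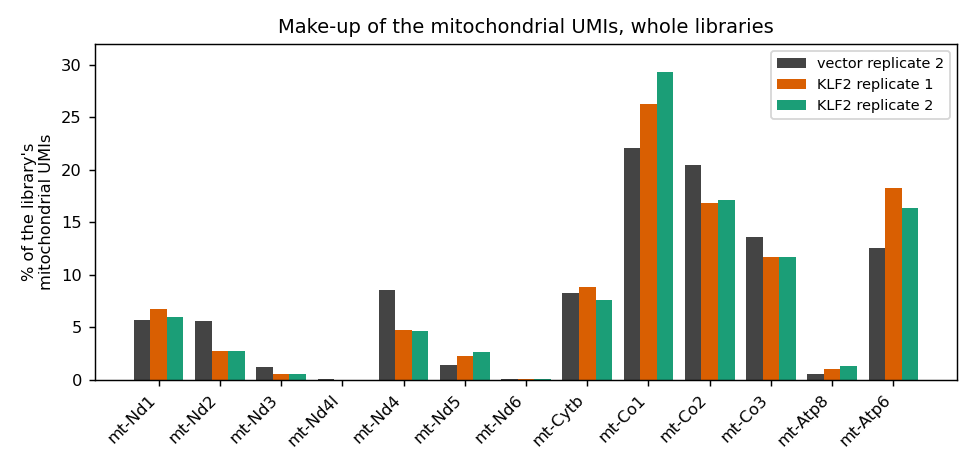
Percent of a library's mitochondrial UMIs (y axis) that came from each of the 13 mitochondrial genes (x axis), 1 bar per library. The mt-Nd2 and mt-Nd4 bars of both KLF2 libraries are lower than those of vector replicate 2, at 2.69% and 2.73% against 5.62% for mt-Nd2, and the mt-Co1 and mt-Atp6 bars are higher.

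The nuclear members moved far less than the mitochondrial ones, and their direction differed by class. In the compartment 30 of 88 tested were lower and 4 higher in the KLF2 libraries, where 10.7% and 13.7% of all genes were. Endothelial-like cells had 21 lower and 1 higher of 84 (13% and 14.3% of all genes), and mesenchymal-like cells 12 lower and 0 higher of 85 (8.04% and 9.68%). Myeloid-like cells had 15 lower and 2 higher of 87 (7.94% and 12.6%). In T/NK-like cells 2 were lower and 4 higher of 84 (9.32% and 11%), in B/plasma-like cells 1 lower and 3 higher of 79 (8.79% and 7.9%), and in neutrophil-like cells 0 lower and 3 higher of 74 (5.59% and 6.9%). In those last 3 classes the shares in both directions were below the background and are no result about the members. In neutrophil-like cells 14 nuclear members had an unadjusted p under 0.05 in either direction, and DESeq2 called 0 lower and 0 higher. In mesenchymal-like cells, where none was higher, 30 had an unadjusted p under 0.05 in either direction, the 12 lower ones among them. DESeq2 called 0 higher there. The median log2 change was -0.87 in the compartment, -0.68 in mesenchymal-like, -0.49 in myeloid-like and -0.41 in endothelial-like cells, 0.01 in T/NK-like, 0.07 in B/plasma-like and 0.41 in neutrophil-like cells, beside 0.67, 0.05, 0.13, 0.02, 0.03, 0.07 and 0.31 over all genes tested.

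**Figure D3:**
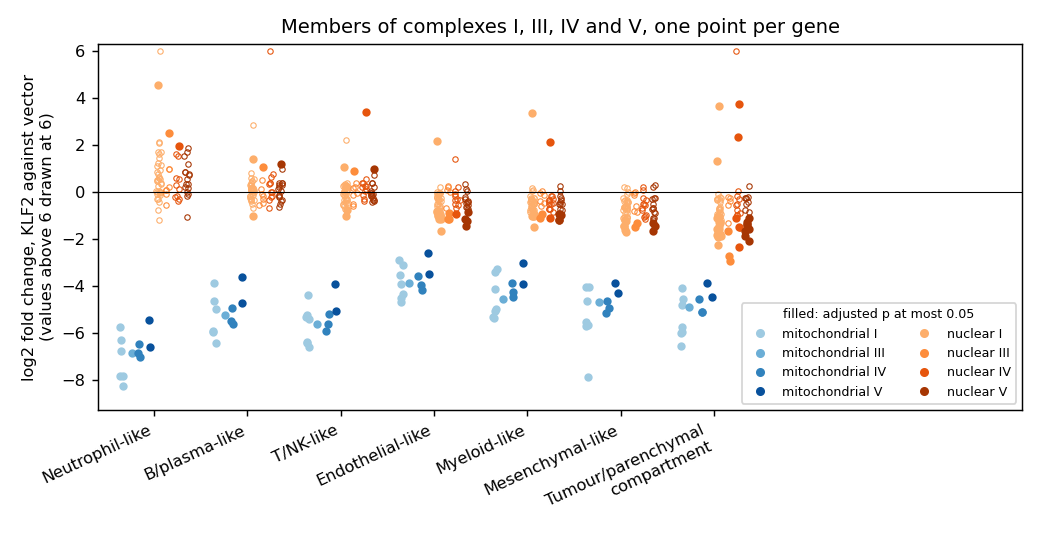
log2 change of each tested member, KLF2 against vector (y axis, values above 6 drawn at 6), by cell class (x axis). Blue points are mitochondrial and orange points nuclear members by complex, filled where the adjusted p is at most 0.05. The blue points lie below all orange points of their class, with medians from -6.83 in neutrophil-like to -3.88 in endothelial-like cells.

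The nuclear difference changed with the cells used and with the scale. In myeloid-like cells, with only the cluster that holds cells of all 3 libraries (770, 97 and 278 cells), 0 members were lower and 1 higher, and the summed nuclear level went from 28807 CPM to 26002 and 23641, against 20274 and 20641 with all myeloid-like cells. All 2120 vector endothelial-like cells were in the cluster led by Fabp4 and Col4a1, with a summed nuclear level of 26974 CPM. The 8 and 21 KLF2 cells of that cluster had 22777 and 25026 CPM. The other 89 and 224, in the cluster led by Gpihbp1 and Ctla2a, had 19483 and 19338. In this class a difference of cluster and one of group can hardly be told apart. DESeq2 called 7 endothelial-like, 6 mesenchymal-like and 0 B/plasma-like members lower. The mean log2 ratio of the summed nuclear level, KLF2 to vector, was -0.46 in endothelial-like, -0.59 in mesenchymal-like, -0.07 in T/NK-like and -0.05 in B/plasma-like cells with nuclear UMIs as the denominator. With all UMIs as the denominator, mitochondrial ones included, it was -0.10 and -0.21 in the first pair and changed sign to 0.27 and 0.35 in the last.

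In complex I, Ndufb7, a membrane-arm subunit, was lower in 6 of 7 classes. In endothelial-like cells it was at 488 CPM in vector replicate 2 and at 192 and 141 in the KLF2 libraries, a log2 change of -1.66 (SE 0.31, adjusted p 6.38e-05). The KLF2 libraries had less than the vector library in every class, and in neutrophil-like cells, where the test was not passed, the levels were 427, 175 and 161. The calls in B/plasma-like and T/NK-like cells were lost with DESeq2 (adjusted p 0.52 and 0.0572), and that in myeloid-like cells with only the cluster of all 3 libraries (adjusted p 0.078). Ndufa2, an accessory subunit of the peripheral arm, fell in 5 classes, with 842, 337 and 313 CPM in mesenchymal-like cells (log2 change -1.61, SE 0.42, adjusted p 0.0124). Ndufs6, an accessory subunit that binds zinc, was at 609, 175 and 166 CPM in the compartment (-1.87, SE 0.25, adjusted p 0.0109) and fell in 4 classes, as did Ndufs5. Ndufa5 was at 789, 168 and 166 and Ndufs7, which carries an iron-sulphur cluster, at 428, 127 and 101 in the compartment. In all, 14 of 38 complex I members were lower in the compartment, 13 in endothelial-like, 6 in mesenchymal-like and 5 in myeloid-like cells. Of the assembly factors Ndufaf8 fell in the compartment, mesenchymal-like and myeloid-like cells, and no other one passed.

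Ndufc2, another membrane-arm subunit, went the other way in 4 classes. In the compartment it was at 199 CPM in vector replicate 2 and at 487 and 510 in the KLF2 libraries, a log2 change of 1.29 (SE 0.27, adjusted p 0.0332). T/NK-like cells had 116, 231 and 235 (1.05, SE 0.29, adjusted p 0.00345) and B/plasma-like cells 90.8, 216 and 248 (1.40, SE 0.37, adjusted p 0.00231). In neutrophil-like cells it rested on 1 vector UMI against 172 UMIs in the KLF2 libraries together, 24.6 times the vector rate with an exact 95% counting interval of 4.35 to 976. In mesenchymal-like cells, where it did not pass, the levels were 175, 239 and 224. With DESeq2 the call held in the compartment and was lost in B/plasma-like, neutrophil-like and T/NK-like cells (adjusted p 0.256, 0.112 and 0.102). In the compartment it was lost with only cells of at most 10% mitochondrial UMIs (adjusted p 0.0618).

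Complex III had the largest fall of a nuclear member that passed the test. Uqcr11, its smallest subunit, had 2309 CPM in the compartment of vector replicate 2 and 333 and 284 CPM in that of the KLF2 libraries, a log2 change of -2.94 (SE 0.30, adjusted p 0.00638). Uqcrq, which binds next to cytochrome b, was at 2305, 381 and 334 there (-2.72, SE 0.29, adjusted p 0.00701), and Uqcr10 at 1942, 574 and 663. The vector values of these 3 genes lay far above both KLF2 libraries, which lay close together. Uqcr11 and Uqcrq also fell in endothelial-like, mesenchymal-like and myeloid-like cells, by less: Uqcr11 was at 497, 263 and 212 in endothelial-like cells (-1.17, SE 0.31, adjusted p 0.00368). Uqcrfs1, the iron-sulphur subunit, was higher in T/NK-like cells at 74.2, 142 and 126 CPM (0.88, SE 0.30, adjusted p 0.0229). It also passed in neutrophil-like cells, on 2 vector UMIs. The T/NK-like call was lost with DESeq2 (adjusted p 0.384). Uqcrb was higher in B/plasma-like cells, at 140, 268 and 292 CPM, a call lost with DESeq2 (adjusted p 0.487) and with at most 10% mitochondrial UMIs (adjusted p 0.373).

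In complex V, 8 of 17 members were lower in the compartment, 4 in endothelial-like, 3 in mesenchymal-like and 6 in myeloid-like cells. Atp5e, the epsilon subunit of the central stalk, was at 2462, 677 and 677 CPM in the compartment (-1.90, SE 0.28, adjusted p 0.0135) and at 1595, 654 and 599 in endothelial-like cells (-1.45, SE 0.31, adjusted p 0.000405). Atp5k and Atp5j2, small subunits of the membrane part, fell in the same 4 classes, and Atp5k was at 1777, 444 and 410 CPM in the compartment. The catalytic subunits did not pass in any class: Atp5b, the beta subunit, was at 700, 640 and 428 CPM in the compartment and Atp5a1, the alpha subunit, at 462, 466 and 324. Atp5g3, one of 3 genes for the c ring, was higher in T/NK-like cells at 266, 490 and 539 CPM (0.99, SE 0.29, adjusted p 0.00581), while its paralogue Atp5g1 fell in the compartment, from 924 to 336 and 249. The Atp5g3 call was lost with DESeq2 (adjusted p 0.0584). Atp5c1, the gamma subunit, was higher in B/plasma-like cells, at 117, 313 and 199, a call lost with DESeq2 (adjusted p 0.451) and with at most 10% mitochondrial UMIs (adjusted p 0.153).

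Complex IV had the fewest members that fell. In the compartment 3 of 16 tested were lower, Cox7a1, Cox5b and Cox6c, and 2 were higher, Cox4i2 and Cox6b2. Cox5b, which stands on the matrix side of the complex, was at 1223, 468 and 429 CPM in the compartment (-1.48, SE 0.27, adjusted p 0.0237), 643, 338 and 375 in endothelial-like and 857, 426 and 431 in myeloid-like cells, and passed in these 3 classes. The endothelial-like call was lost with DESeq2 (adjusted p 0.07) and the myeloid-like one with only the cluster of all 3 libraries (adjusted p 0.118). Its partner Cox5a had log2 changes between -0.34 and 0.56 over the 7 classes and did not pass in any. Cox7b rose in neutrophil-like cells, from 131 to 369 and 552 CPM (1.95, SE 0.66, adjusted p 0.0297), a call lost with DESeq2 (adjusted p 0.256). Over all complexes, 35 of the 88 nuclear members tested anywhere were lower in at least 1 class, 9 were higher in at least 1, none in both directions, and 44 were not called in any. The 9 members lower in 4 or more classes were Ndufb7, Ndufa2, Ndufs5, Ndufs6, Uqcr11, Uqcrq, Atp5e, Atp5j2 and Atp5k. Calls over several classes were not counted for all genes, so these pooled counts have no background and are no result about the members. The classes of 1 library share a tumour and a preparation, so repeats over classes are not repeats over mice.

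In the vector library the hepatocyte-lineage-like cells, nearly all of its compartment, had the highest nuclear levels of any class. Their nuclear members summed to 50786 CPM, against 14936 to 28807 in the other vector classes. By complex they had 15923 CPM for complex I, 8625 for complex III, 10777 for complex IV and 15460 for complex V, each above every other vector class. The KLF2 cells of the same cluster, 14 and 45 in number, had 22277 and 28187 CPM in all and 2905 and 3448 for complex III. The 459 and 1467 cells of the KLF2 clusters that met the cholangiocyte-like rule had 26997 and 26258.5. Across the KLF2 clusters of the compartment the lowest sum was in the cluster led by Cdan1 and Ptprt, at 4898 and 6022 CPM. The cluster led by Ube2c and Top2a, genes of dividing cells, had 28288 and 26091. The Malat1-led cluster had 15249 and 16002. In the compartment a difference of cell type and a difference of group cannot be told apart.

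**Figure D4:**
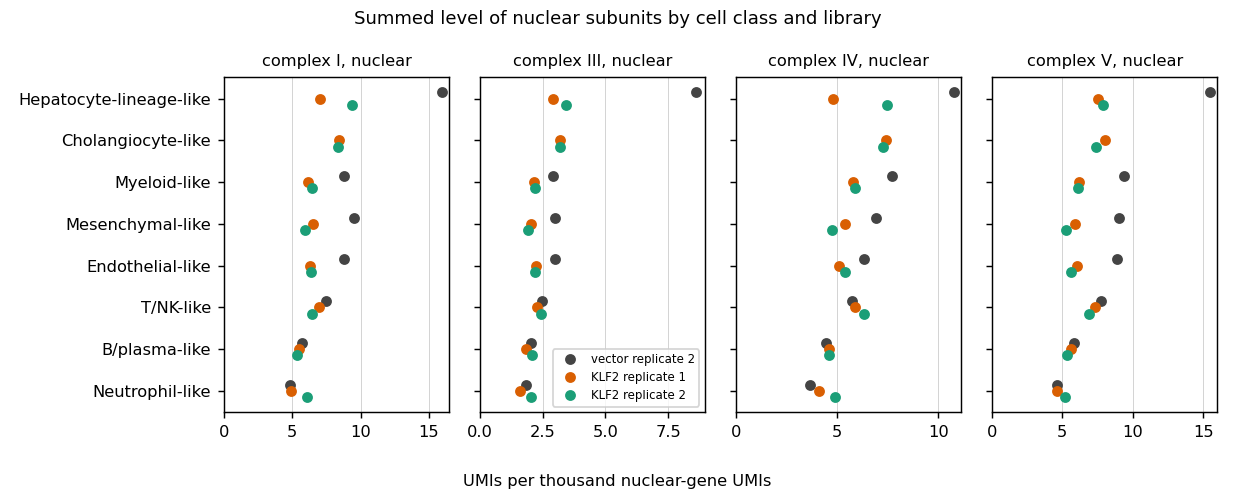
Summed level of the nuclear members of complexes I, III, IV and V (1 panel each, x axis, UMIs per 1000 nuclear-gene UMIs) by cell class (y axis), 1 point per library, with the compartment shown by its hepatocyte-lineage-like and cholangiocyte-like cells. The vector hepatocyte-lineage-like point is the highest of each panel, and in complex III it is at 8625 CPM beside 2905 and 3448 for the KLF2 cells of that cluster.

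Set against the mean of the other classes, with the library as a block, the compartment had the most nuclear members higher with all 3 libraries. That order turned without vector replicate 2, when T/NK-like cells had 21 higher and the compartment and myeloid-like cells 14 each. Of 87 tested, 45 were higher and 0 lower, where 14.9% and 13.3% of all 12395 genes were. They were 22 of 38 complex I, 6 of 8 complex III, 5 of 15 complex IV and 8 of 17 complex V members and 4 of 8 assembly factors. Uqcr11 had the largest of the changes in complexes I, III and V, 1.55 on the log2 scale (SE 0.35, adjusted p 0.00321), followed by Uqcrq (1.18), Uqcr10 (1.17) and Ndufab1, the mitochondrial acyl carrier protein (1.15). The median over the nuclear members was 0.69 and over all genes 0.05. Without vector replicate 2 the difference of Uqcr11 was 0.35 (adjusted p 0.066) and that of Uqcrq 0.16 (adjusted p 0.469), and neither passed. The count rested on every library: 14 were higher and 2 lower without vector replicate 2, 6 were higher without KLF2 replicate 1 and 20 without KLF2 replicate 2.

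The immune and stromal classes differed from the mean of the others in few members. Myeloid-like cells had 8 higher and 0 lower (13.4% and 4.74% of all genes), among them Cox5a (0.76, SE 0.18, adjusted p 0.00628) and Ndufb8 (0.69, SE 0.16, adjusted p 0.00557). Without KLF2 replicate 1 that count was 1, without KLF2 replicate 2 it was 2 and without vector replicate 2 it was 14. Neutrophil-like cells had 0 higher and 7 lower (7.23% and 3.01%), namely Ndufb5, Uqcrb, Atp5g2, Ndufv3, Cox7a2l, Cox6c and Ndufs4, between -0.97 and -0.80. Those 7 became 0 without KLF2 replicate 1 and 3 without KLF2 replicate 2. T/NK-like cells had 2 higher, Uqcrh and Cox7a2l, and 1 lower, Cox4i2 (13.2% and 10.5%), with 0 higher without either KLF2 library, and 21 higher and 0 lower without vector replicate 2. Endothelial-like cells had 0 higher and 3 lower (16.2% and 8.72%), with 0 lower without either KLF2 library and 8 without vector replicate 2. For B/plasma-like cells no member was called by edgeR (7.49% and 4.67% of all genes were), 8 had an unadjusted p under 0.05, and DESeq2 called 1 in each direction. Of the mitochondrial members only mt-Atp8 passed, lower in mesenchymal-like cells (-0.98, SE 0.33, adjusted p 0.0397), a call lost without either KLF2 library. In the KLF2 libraries alone 11 mitochondrial members were higher in endothelial-like cells, and 9 were lower in neutrophil-like, 6 in T/NK-like and 4 in mesenchymal-like cells.

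Members with tissue-restricted paralogues set the classes apart most. Cox4i2 is the paralogue of Cox4i1 known from lung and pericytes, and Ndufa4l2 is a paralogue of Ndufa4 known to be induced in low oxygen. Ndufa4 is now assigned to complex IV and both are grouped under complex I here by symbol. In mesenchymal-like cells Cox4i2 was at 191 CPM in vector replicate 2 and at 411 and 96.0 in the KLF2 libraries, and in the other 5 of the 6 classes at 23.0 or less. Its log2 difference from the other classes was 4.63 (SE 0.37, adjusted p 2.07e-08). Ndufa4l2 was at 325, 330 and 110 CPM in mesenchymal-like cells, 4.51 above the other classes (SE 0.49, adjusted p 1.06e-06). These were the only nuclear members higher in that class (2 of 87, where 16.6% of all genes were higher and 6.91% lower). The levels of both genes in KLF2 replicate 2 were below those of the other libraries. The constitutive Cox4i1 was at 978, 659 and 507 CPM and Ndufa4 at 289, 327 and 359 in the same cells.

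Between the groups, Cox4i2 and Ndufa4l2 were higher in the KLF2 compartment. Cox4i2 was at 4.78 CPM in the vector library, on 8 UMIs, and at 87.5 and 43.9 in the KLF2 libraries (3.76, SE 0.76, adjusted p 0.0289). Ndufa4l2 was at 7.77, 119 and 78.6 (3.64, SE 0.51, adjusted p 0.0123). Their KLF2 levels varied among clusters. The compartment cluster led by Ibsp, Slpi and Col1a1 had Cox4i2 at 232 and 170 CPM and Ndufa4l2 at 310 and 228. A cluster of 35 and 89 KLF2 cells led by Prr9, Defa21 and Defa22 had Cox4i2 at 1453 and 1222 CPM, beside Cox4i1 at 723 and 607. Both clusters were singled out after their values were seen, and the members took no part in the clustering. In myeloid-like cells Ndufa4l2 was at 1.85, 15 and 26.7 CPM (3.35, SE 0.56, adjusted p 0.00618) and Cox4i2 at 2.65, 12.8 and 12.5 (2.12, SE 0.48, adjusted p 0.0191). With the myeloid-like cluster of all 3 libraries, Ndufa4l2 stayed past the threshold (adjusted p 0.0477) and Cox4i2 did not pass (2.65, 10.8 and 4.11 CPM, adjusted p 0.504). Endothelial-like cells had Ndufa4l2 at 3.62, 6.48 and 26.8 (2.15, SE 0.78, adjusted p 0.0356), a call lost with DESeq2 (adjusted p 0.356). The compartment of the same libraries was also higher in both genes, and the part of RNA from other cells in them was not tested.

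The muscle-type paralogues were low. Cox6a2 was at 18.5, 7.58 and 14.8 CPM in myeloid-like cells and at 7.90 or less in the other immune, endothelial and mesenchymal classes, and was 5.20 above the other classes on the log2 scale (SE 0.61, adjusted p 1.05e-05). At levels this low the size of that difference is poorly set. Cox6a2 was also higher in the compartment than in the other classes (2.70, SE 0.87, adjusted p 0.029), a call lost without either KLF2 library. Cox7a1, at 9.80, 11.1 and 5.80 CPM, was also higher in myeloid-like cells (2.03, SE 0.47, adjusted p 0.00435), a call lost without KLF2 replicate 1 (1.49, adjusted p 0.218). It fell in the compartment, from 14.4 to 2.84 and 2.99 CPM, on 24 vector UMIs (-2.34, SE 0.37, adjusted p 0.0167). Cox6b2, the testis-type paralogue of Cox6b1, rose in the compartment from 5.38 to 31.6 and 23.0 CPM (2.31, SE 0.47, adjusted p 0.0301; not passed with at most 10% mitochondrial UMIs, adjusted p 0.0571) and in T/NK-like cells from 1.70 to 25.5 and 12.6 (3.40, SE 0.96, adjusted p 0.00361). Cox8b had 0, 76 and 58 UMIs in the compartment, and 3 UMIs, the limit that a count of 0 allows, are a higher CPM in the vector library than these. Cox7b2 and Cox8c had at most 3 UMIs in any class and were never tested. The ubiquitous paralogues Cox6a1, Cox6b1, Cox7a2, Cox7a2l and Cox8a did not pass in any class between the groups.

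**Figure D5:**
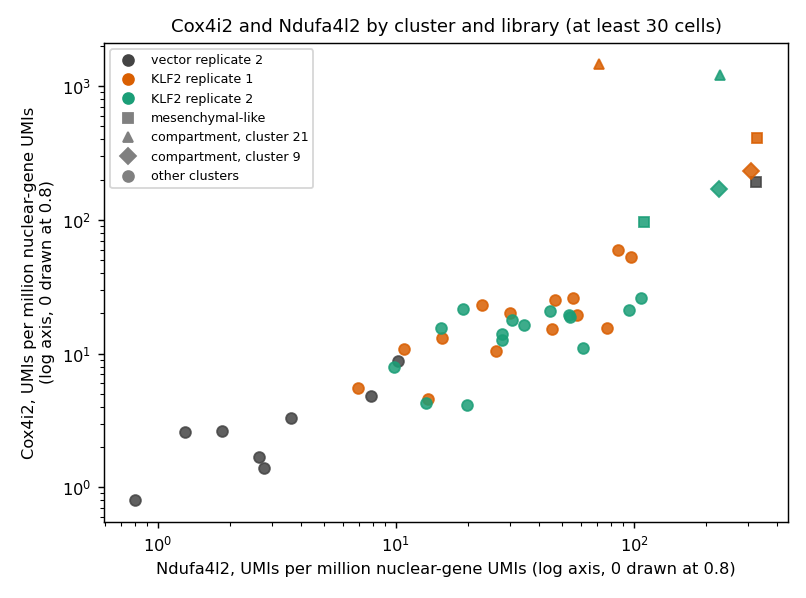
Cox4i2 (y axis) against Ndufa4l2 (x axis), both in UMIs per 1000000 nuclear-gene UMIs on log axes with 0 drawn at 0.8, 1 point per cluster and library with at least 30 cells. Mesenchymal-like cells (squares) have Cox4i2 at 191, 411 and 96.0 CPM, and the cluster led by Prr9 (cluster 21, triangles) stands highest at 1453 and 1222.

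Genes that work with the chain were read from lists, beside 10.7% of all genes lower and 13.7% higher in the compartment. In the compartment, 1 of the 5 genes of complex II and cytochrome c was lower, Cycs, cytochrome c itself, at 705, 235 and 173 CPM (-1.82, SE 0.32, adjusted p 0.0209). Of 24 tested assembly factors of complexes III and IV, 7 were lower and 1 higher: Cox17, a copper chaperone of complex IV, was at 419, 119 and 124, and Cox11, which helps place copper, at 2.99, 22.0 and 17.7. Among 11 genes of mitochondrial transcription and DNA upkeep 2 fell, the topoisomerase Top1mt (28.1, 3.18 and 2.75 CPM) and the helicase Twnk (37.7, 12.5 and 10.1). Tfam and Polrmt, the activator and the polymerase of mitochondrial transcription, were not among them. Of 6 upstream regulators Pprc1 was higher and Ppargc1b lower. Of 13 genes of mitochondrial RNA handling 1 fell, Lrpprc, which stabilises mitochondrial mRNAs, at 108, 30.4 and 29.9 CPM (-1.87, SE 0.22, adjusted p 0.0084). The mitochondrial ribosome had 12 lower and 1 higher of 78, import 6 lower of 25, and the TCA cycle 4 lower of 13, led by Suclg1 and Suclg2. The shares lower in the ribosome and RNA handling lists were near that of all genes.

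In T/NK-like cells, where 9.32% of all genes were lower, 2 of 8 genes of mitochondrial transcription and DNA upkeep were lower, Polg and Polg2, both parts of the DNA polymerase, and 0 of 11 genes of RNA handling. In endothelial-like cells, where 13% of all genes were lower, 7 of 78 ribosome genes, 6 of 24 import genes and 1 of 12 genes of RNA handling (Lrpprc) were lower. B/plasma-like cells had 2 of 20 import genes higher, where 7.9% of all genes were. Neutrophil-like cells had 2 of 13 import genes, 1 of 48 ribosome genes and the 1 tested gene of RNA handling higher, where 6.9% of all genes were. Of these neutrophil-like calls, Tomm40 and Mrps14 were at 0 CPM in the vector library and Timm8b and Slirp at 11.9. The median log2 change of the ribosome genes was 0.76 in neutrophil-like cells, beside 0.31 over all genes tested there. In the compartment it was -0.52, beside 0.67. Taco1, which activates translation of mt-Co1, was higher in endothelial-like, mesenchymal-like, myeloid-like and T/NK-like cells, in the last at 4.03, 25.5 and 27.7 CPM (2.76, SE 0.56, adjusted p 2e-05). Cox16 fell in 6 classes, and Mrpl53 was at 29.9 to 123 CPM in the vector library and at 4.24 or less in the KLF2 libraries where it was called. Both overlap other genes on their own strand, Gm20498 and Gm42688 among them, so their counts are uncertain. Of the nuclear members 5 of 88 with a position overlap a coding gene on the same strand (Cox4i1, Ndufa13, Ndufb2, Ndufb8 and Ndufb9), and 22 more overlap one on the opposite strand only.

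Several other measures differed between the libraries, and their part in these results was not tested. Summed over 11 hepatocyte marker genes, the non-parenchymal classes held 289 to 772 CPM in vector replicate 2, with 10 or 11 of the 11 found, and 13.8 to 58.3 in the KLF2 libraries, with 3 to 10 found. The highest of these was in vector neutrophil-like cells, which also had the highest mitochondrial share. Malat1, a nuclear RNA, was at 14675 CPM in vector neutrophil-like cells and at 3844 and 7221 in the KLF2 ones, and at 7972, 2651 and 4837 in T/NK-like cells. It was also lower in both KLF2 libraries in B/plasma-like (9699, 3435 and 5961) and myeloid-like cells (4462, 2088 and 4295). Endothelial-like cells had 6074, 3665 and 6081, and mesenchymal-like cells 3768, 3466 and 9703. The compartment had more in both KLF2 libraries, at 3444, 4754 and 6077. Genes overlapping rRNA took 28.8%, 14.1% and 18.8% of the UMIs of the 3 libraries. By class, KLF2 replicate 1 was below vector replicate 2 throughout, and KLF2 replicate 2 was not. It was above vector replicate 2 in B/plasma-like (24.3% against 21.4%), T/NK-like (24.6% against 22.6%) and myeloid-like cells (21.9% against 21.2%). In endothelial-like cells it was near it (29.0% against 29.6%), and in the compartment lower (18.0% against 37.0%). Nuclear members with short gene bodies had lower log2 changes: over 72 to 86 nuclear members per class, Spearman's rho between gene span and change was 0.10 to 0.43, and over all genes it was 0.07 to 0.42. These are correlations across genes, which are not independent replicates, and members are short, with a median span of 7245 bases in the compartment against 21162 for all genes tested there.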

How the data were processed

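The authors deposited UMI counts per gene and cell barcode, made with PISA 1.0 per the file headers, on GRCm38 per the submitters' processing notes, from a DNBelab droplet kit per the labels. Each library is 1 mouse. Between the groups, p-values measure the spread within the KLF2 pair, moderated across genes, and the vector library adds none. Between classes they measure how class differences vary among these 3 libraries. Cells with at least 300 genes were normalised to 10000, clustered without the members (scanpy 1.11.5, 2000 variable genes, 30 components, 15 neighbours, Leiden resolution 1, leidenalg 0.10.2) and named from marker genes. No doublet caller was run and no ceiling was set on the mitochondrial share. Counts were summed per library and class, for classes with at least 50 cells in each library, and tested with edgeR 4.0.16 (quasi-likelihood, Benjamini-Hochberg adjustment over all genes, 0.05; R 4.3.3). KLF2 against vector within a class leaves 1 residual degree of freedom. Classes were compared with the library as a block. Alternatives included DESeq2 1.42.0. The fits were tested on simulated data: in mesenchymal-like cells, over 10756 genes, the test between groups recovered 0% of 2-fold, 30% of 4-fold, 90% of 8-fold and 98% of 32-fold changes. Every simulated gene had the same dispersion, 0.05, and the groups had no mitochondrial difference. These rates therefore need not hold for the real fits. Levels use UMIs of nuclear genes as the denominator, leaving out mt- genes, Gm42418, Gm26917 and AY036118. Positions are from GENCODE M21.

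The members and gene lists were chosen with earlier results of these data known. Genes named in the text are the mitochondrial members, the isoform pairs, up to 6 nuclear members in each direction per comparison with the largest changes past 0.05 and a mean of at least 30 CPM, and up to 3 members of each pathway list; others were named after their values were seen.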

Additional observations from a re-analysis of the deposited data

Results flagged for a closer look

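The difference between KLF2 and vector varied among the 6 cell classes for 16 members, by a class by group term in an edgeR fit over all classes with p adjusted over 11777 genes, of which 5.6% passed. The vector side of every class is 1 library. For 11 mitochondrial members the log2 change was lowest in neutrophil-like and highest in endothelial-like cells. For mt-Co3 the changes were -6.89 (SE 0.66) and -3.99 (SE 0.37), with an adjusted p of 0.000592 for the difference among classes. For mt-Nd2 they were -8.27 (SE 0.70) and -4.51 (SE 0.35), with 0.00374. For mt-Atp8 they were -5.44 (SE 0.63) and -2.60 (SE 0.32), with 0.0184. The adjusted p was 0.000752 for mt-Co2, 0.000909 for mt-Co1 and for mt-Nd4, 0.0018 for mt-Atp6, 0.0019 for mt-Nd1, 0.0112 for mt-Nd5, 0.0115 for mt-Nd3 and 0.014 for mt-Cytb.

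Of 85 nuclear members 5 passed, a share near that of all genes and no result about the members as a group, each with its highest change in neutrophil-like cells. Cox7c was at -0.56 in mesenchymal-like and 1.62 in neutrophil-like cells (adjusted p 0.0200), Cox7a2 at -0.69 and 1.52 (0.0246), Ndufa11 at -1.18 and 1.69 (0.0339) and Ndufc2 at 0.16 and 4.56 (0.023). Atp5b was at -0.64 in endothelial-like and 1.85 in neutrophil-like cells (0.0437). Of these changes within a class, that of Ndufc2 in neutrophil-like cells passed, on 1 vector UMI.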

How the results depend on the processing

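No named gene followed through the alternative runs turned its direction, and no mitochondrial member was called higher in the KLF2 libraries in any run. Other called genes were followed as counts only. The mean nuclear ratio changed sign in B/plasma-like and T/NK-like cells with all UMIs as the denominator. Counts below are nuclear members, KLF2 against vector, unless said, and the cause of each move was not tested. With DESeq2, 0 B/plasma-like members were higher and 0 lower, endothelial-like 0 and 7, T/NK-like 1 and 0, mesenchymal-like 6 lower, myeloid-like 1 higher and neutrophil-like 0 higher. Against the other classes DESeq2 gave B/plasma-like 1 higher and 1 lower, endothelial-like 1 and 7, mesenchymal-like 1 lower and T/NK-like 3 lower. At Leiden resolution 0.5, mesenchymal-like cells had 3 higher and myeloid-like 4 lower. Against the other classes this resolution gave endothelial-like 1 mitochondrial member higher, mesenchymal-like 0 mitochondrial lower, myeloid-like 2 higher, neutrophil-like 13 lower and T/NK-like 1 higher and 2 lower. With the members kept in the clustering, endothelial-like cells had 0 higher and mesenchymal-like 25 lower, and against the other classes endothelial-like had 1 lower and T/NK-like 0 lower. With only the myeloid cluster of all libraries, chosen after seeing the data, 1 was higher and 0 lower.

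A ceiling of 10% mitochondrial UMIs gave the compartment 2 higher, B/plasma-like 0 higher and 2 lower, endothelial-like 0 higher and T/NK-like 4 lower. Against the other classes it gave endothelial-like 9 mitochondrial members higher and 1 nuclear higher and 7 lower, mesenchymal-like 0 mitochondrial and 3 nuclear lower, and T/NK-like 4 higher and 2 lower. A ceiling of 25% gave neutrophil-like 5 higher, and against the other classes endothelial-like 8 mitochondrial higher and 0 nuclear lower and T/NK-like 2 lower. At least 500 genes per cell gave, against the other classes, B/plasma-like 3 lower, endothelial-like 3 mitochondrial higher and 1 nuclear higher and 7 lower, mesenchymal-like 3 mitochondrial and 4 nuclear lower, and T/NK-like 4 higher and 2 lower. At least 1000 UMIs per cell, chosen after seeing the data, gave neutrophil-like 5 higher, and against the other classes endothelial-like 1 mitochondrial and 1 nuclear higher and T/NK-like 2 lower. Without a filter on low counts, B/plasma-like had 0 lower, neutrophil-like 1 higher and T/NK-like 4 lower, and against the other classes endothelial-like 5 mitochondrial higher and T/NK-like 0 higher and 2 lower. Scaling on nuclear genes only gave, against the other classes, the compartment 71 higher, myeloid-like 5 higher and T/NK-like 1 higher and 2 lower.

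With all UMIs as the denominator, the mean log2 ratio of the summed mitochondrial level was -4.90 in B/plasma-like, -4.13 in the compartment, -3.39 in endothelial-like, -6.29 in neutrophil-like and -5.25 in T/NK-like cells. The nuclear one was 0.35 in B/plasma-like, -0.30 in the compartment, -0.10 in endothelial-like, -0.21 in mesenchymal-like, -0.31 in myeloid-like, 0.91 in neutrophil-like and 0.27 in T/NK-like cells. Under the 25% ceiling the mitochondrial ratios were -4.66 in B/plasma-like, -3.49 in endothelial-like, -6.16 in neutrophil-like and -5.21 in T/NK-like cells, and the nuclear ones -0.0854, -0.48 and -0.10 in B/plasma-like, endothelial-like and T/NK-like cells.

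Leaving out 1 library at a time, against the other classes, gave the compartment 6 to 20 higher and 0 to 2 lower, myeloid-like 1 to 14 nuclear and 0 to 3 mitochondrial higher, and T/NK-like 0 to 21 higher, 0 to 0 lower and 0 to 6 mitochondrial lower. It gave endothelial-like 0 to 8 nuclear lower and 0 to 11 mitochondrial higher, mesenchymal-like 0 to 10 nuclear and 0 to 4 mitochondrial lower, neutrophil-like 0 to 7 nuclear and 0 to 9 mitochondrial lower, and B/plasma-like 0 to 1 mitochondrial higher. Between the groups this leaves 1 library against 1 and no test. Neutrophil-like cells were under 50 in a library with the 10% ceiling and with 500 genes and gave no value. No paired analysis was possible because the vector and KLF2 libraries with counts share only replicate number 2. Few UMIs limit mt-Nd4l, mt-Nd6 and most members in vector neutrophil-like cells.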

Other observations

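An unnamed cluster of 1783 vector cells, with 1 and 8 KLF2 cells, was led by mt-Nd2, mt-Nd4 and mt-Nd3 although these genes took no part in the clustering. Its vector cells had a median mitochondrial share of 21.4%, 781207 mitochondrial UMIs per 1000000 nuclear-gene UMIs (CPM) and 18477 CPM for the nuclear members. A cluster of 131 vector cells led by Ccl5, Fabp4 and Nkg7, markers of different cell types, had 134369 and 26174.

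In the KLF2 libraries the Malat1-led compartment cluster of 842 and 2240 cells had 64415 and 53728 CPM of mitochondrial genes, beside 7659 and 10990 over the whole libraries. These are sums over cells: the median cell of the cluster had a mitochondrial share of 0.541% and 0.699%, and 16.4% and 12.3% of its cells were above 10%. The cluster led by Ube2c and Top2a had 2937 and 4686 CPM, with nuclear members at 28288 and 26091. Of these 2 clusters the Malat1-led one stood higher in mitochondrial and lower in nuclear members in both KLF2 libraries, as a description with no test. Other clusters followed this contrast only in part. The cluster led by Cdan1 and Ptprt was lower still in nuclear members, at 4898 and 6022 CPM. Its mitochondrial genes, at 9343 and 5523 CPM, were above those of the dividing cells but far below those of the Malat1-led cluster. The cluster led by Mt3 and Car3 had less of the mitochondrial genes than the dividing cells, at 2582 and 3932 CPM.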
